A study of Mus musculus with 12 samples.

Results

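Sorted cells at day 6 of reprogramming, called Stage 1, were compared with the mouse embryonic fibroblasts (MEF) they came from, by the accessibility of 115000 genomic regions in 3 libraries of each group, 6 of the 12 libraries of the series. All regions counted in those libraries were taken, and 71069 of them had enough reads to be tested. The assay was ATAC-seq, in which the Tn5 transposase cuts and tags open DNA. Stage 1 cells were sorted for the Oct4-GFP reporter, a green fluorescent protein that marks activity of Pou5f1 (Oct4), whereas MEF were unsorted. Both groups came from mice of a mixed C57BL/6 and 129 background, and the protocol is called 3c enhanced reprogramming; the sources do not say what 3c stands for. The labels do not tell whether the replicates are separate cultures or animals. All p-values therefore reflect only how far these libraries spread, and that spread could be technical. How the sort itself enters a difference and how 6 days of reprogramming enter it cannot be told apart, since the groups differ in both.

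Chromatin is open where nucleosomes are displaced, at most active gene starts and at distal enhancers that differ between cell types. During reprogramming of fibroblasts by transcription factors, fibroblast enhancers lose accessibility and enhancers of embryonic cells gain it, while starts of genes used by every cell remain open. A site that is less accessible in a bulk library may be closed in more cells or less open in each, and these cannot be told apart here.

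Stage 1 libraries held 1065108 to 1531153 reads in regions (7.36% to 8.12% of a library), and MEF libraries 2933421 to 6261903 (11.3% to 22.1%), so values are more precise in MEF. Counts were scaled by TMM, which multiplies each library's reads in regions by a factor. Scaled to all reads of a library, all genes had a median log2 fold change of -0.96, against -0.012 in the main scaling. Fold changes below are relative to the TMM scaling unless another is named. Expected background reads made up 28.6% to 31.8% of the reads in regions in Stage 1 and 8.92% to 19.8% in MEF. All 9 fibroblast markers fell in Stage 1 and all 8 pluripotency markers rose, both counts over regions near the gene. Pou5f1, whose 5 regions are shared with neighbouring genes, had 93.8, 82.3 and 95 CPM in Stage 1, against 45.0, 46.2 and 40.3 CPM in MEF. Its log2 fold change of 1.04 was 0.085 when scaled to all reads of a library (edgeR adjusted p = 0.769). The fibroblast factor Twist2 had 15.4, 13.3 and 12 CPM in Stage 1, against 96.8, 107 and 109 CPM in MEF. The groups did not overlap at either gene. Of 10 tested macrophage and blood markers 4 rose and 2 fell, with a summed level of 416 to 430.1 CPM in Stage 1 and 386 to 401 CPM in MEF. Of 7 endothelial markers 5 fell and 0 rose, with 177 to 200.3 CPM in Stage 1 and 339.5 to 354 CPM in MEF. The part of other cell types in the results was not tested.

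Across all regions tested, 28456 gained and 28700 lost accessibility in Stage 1 and are called more open and less open below (80.4% called; 40% gained and 40.4% lost, and 76.7% called without overlap). The changes were large: 18531 more open regions (65.1%) and 18105 less open regions (63.1%) differed at least 4-fold. A more open region had a median of 12.1 CPM in Stage 1 and 1.73 CPM in MEF, and a less open region 3.67 CPM in Stage 1 and 21.3 CPM in MEF. Against the read density outside the regions, the median more open region stood 4.85 times over background in Stage 1 and 1.14 times in MEF, and the median less open region 1.02 times in Stage 1 and 11 times in MEF. At 2 times the background in the higher group, 26911 of the more open and all 28700 less open regions remained. With whole-library scaling 21796 regions were more open and 59654 less open, and after thinning every library to 1034936 reads 22863 and 16054. The share of gains among all calls therefore moves with scaling and depth.

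Regions far from genes were called more often than those at gene starts. Within 1 kb of a gene start 55.4% of 14014 regions were called, from 1 to 10 kb 80.1%, from 10 to 50 kb 85.8%, from 50 to 200 kb 90.3%, and beyond 200 kb 94.1% of 6331. Median distance to a start was 22103 bp for more open regions, 28566 bp for less open ones and 2104 bp for those not called. The order also held among the 18338 regions that the deposited interval lists give for both groups, where 50.3% within 1 kb and 68.6% beyond 200 kb were called, and among regions above the median level (53.6% and 96.2%). It held with whole-library scaling, thinning, DESeq2 and a fit of the 6 libraries alone, where 41.6% to 68.6% within 1 kb and 91.7% to 92.5% beyond 200 kb were called.

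With all 12 libraries in the fit, the direction of change had no steady order with distance. Of called regions, 41.7% were more open within 1 kb of a start, 58.3% from 1 to 10 kb, 52.2% from 10 to 50 kb, 45.4% from 50 to 200 kb and 47.4% beyond. With the 6 libraries alone the share fell at each step, from 71.2% within 1 kb to 55.5%, 45.6%, 36.6% and 33.8% beyond 200 kb. At starts the balance differed between fits, which also differ in the scaling factors, in the regions tested, in depth or in the test. It was 71.2% more open with the 6 libraries alone, 66.0% with thinned libraries, 40.0% with DESeq2 and 13.0% with whole-library scaling. The median log2 fold change of start regions was -0.14 with all 12 libraries and 0.19 in the 6-library fit. It was -0.88 with whole-library scaling, which changes the scaling and the regions kept. The 6-library fit took its own TMM factors and tested 13945 start regions, against 14014 with all 12 libraries. The part of the scaling in the direction at starts was not tested.

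Width differed between gains and losses. Of the narrowest width class (at most 550 bp), 70.4% opened and 7.46% closed in Stage 1, whereas from 650 to 750 bp 20.4% were more open and 65.8% less open, and above 750 bp 20.4% and 54.7%. More open regions had a median width of 550 bp, less open ones 700 bp and those not called 650 bp. The same order was seen in regions on both lists, where 54.3% of the narrowest were more open and 0.778% less open. In whole-library scaling the narrowest regions were 29.5% more open and 46.5% less open. Level moved with width: of the lowest class of mean level 72.1% were more open and 12.6% less open, and of the highest class 22.8% and 46.4%. So did the list a region came from, since regions on the Stage 1 list alone had a median width of 550 bp and those on the MEF list alone 650 bp, and the lists come from libraries of unlike depth. The part of depth and of list in the relation to width was not tested.

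**Figure D1:**
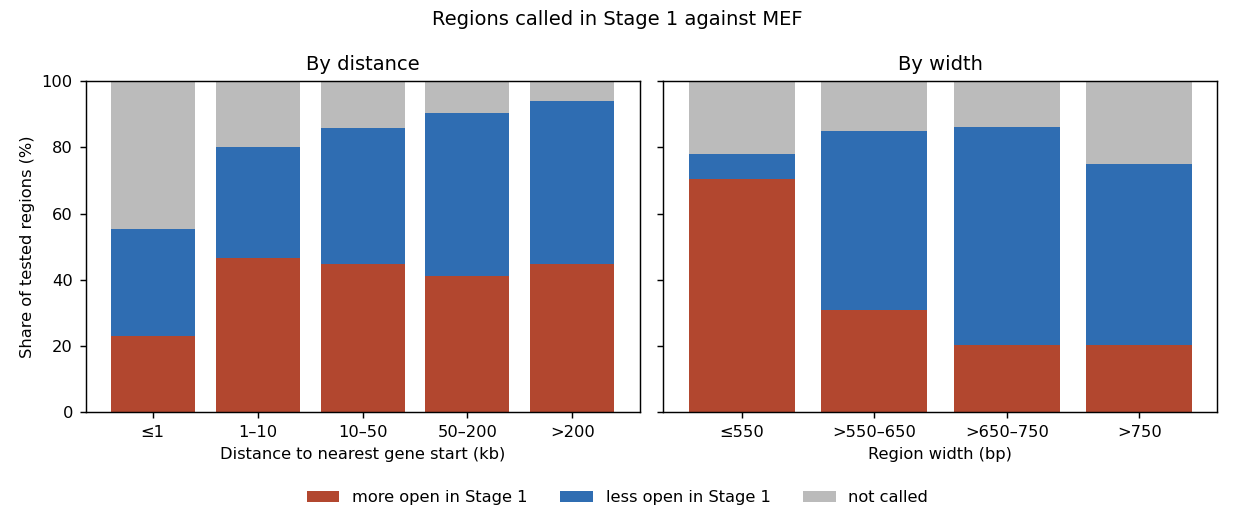
Bars give the share of tested regions that were more open (red), less open (blue) or not called (grey) in Stage 1 against MEF, by distance to the nearest gene start in kb (left) and by region width in bp (right). The grey share shrinks at each step away from gene starts, and the red share is 70.4% in the narrowest class.

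Interval lists and counts can be set side by side for each region. Of 28604 tested regions on the MEF list and not the Stage 1 list, 23994 lost and 529 gained accessibility in Stage 1. Of 15768 on the Stage 1 list and not the MEF list, 15580 were more open. Regions on both lists split into 5204 more open, 4699 less open and 8435 not called, so 54.0% of the sites on both lists still differed in level. In addition, 7143 of 8359 tested regions on neither list were more open, with a median log2 fold change of 2.27. Regions on neither list come from the counted set of the whole series, and the read filter also let regions pass on the other groups. Their share of gains can therefore be set in part by how they were chosen. The lists and the counts come from the same libraries, so all these shares are a description.

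The share of each library's reads compares the same distance classes without a test per region and without TMM. Regions within 1 kb of a start, 17.1% of the counted sequence, took 38.2, 35.9 and 37.1% in Stage 1, against 31.4, 31.6 and 30.3% in MEF. Those beyond 50 kb took 21.6, 23.6 and 22.8% in Stage 1, against 29.4, 28.9 and 29.5% in MEF. All Stage 1 libraries lay above all MEF libraries at starts and below them in distal regions. At starts this is the opposite direction to the main fit, where the median log2 fold change of start regions was -0.14. In the 6-library fit that median was 0.19. The means were 37.1% ± 1.14 in Stage 1 and 31.1% ± 0.679 in MEF at starts, and 22.7% ± 0.997 in Stage 1 and 29.3% ± 0.316 in MEF beyond 50 kb (SD, n = 3 each). Each gave p = 0.1 in an exact permutation test (two-sided), the lowest value that 3 against 3 can reach, and 0.1 when adjusted over the 4 measures tested. After expected background was subtracted the difference at starts was 12.51 percentage points, against 5.93 before. The read-weighted width was 752 ± 4.16 bp in Stage 1 and 771 ± 5.54 bp in MEF (p = 0.1, exact, n = 3 each).

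Chromosome X took 1.92, 2.05 and 2.08% in Stage 1, against 1.89, 1.76 and 1.71% in MEF (p = 0.1, exact). Of its 1422 tested regions 45.2% were more open and 31.9% less open, while chromosome 19 had 31.2% and 45.2%. On the autosomes the share more open ran from that of chromosome 19 to 44.3% on chromosome 6. Chromosome Y, with 20 counted regions, took 0.0391% ± 0.00331 of the reads in Stage 1 and 0.00916% ± 6.61e-04 in MEF (SD, n = 3 each); 11 of its 15 tested regions were more open and none less open. The sexes of the embryos or cultures are not given in the labels, and the share of male cells in each group was not tested.

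**Figure D2:**
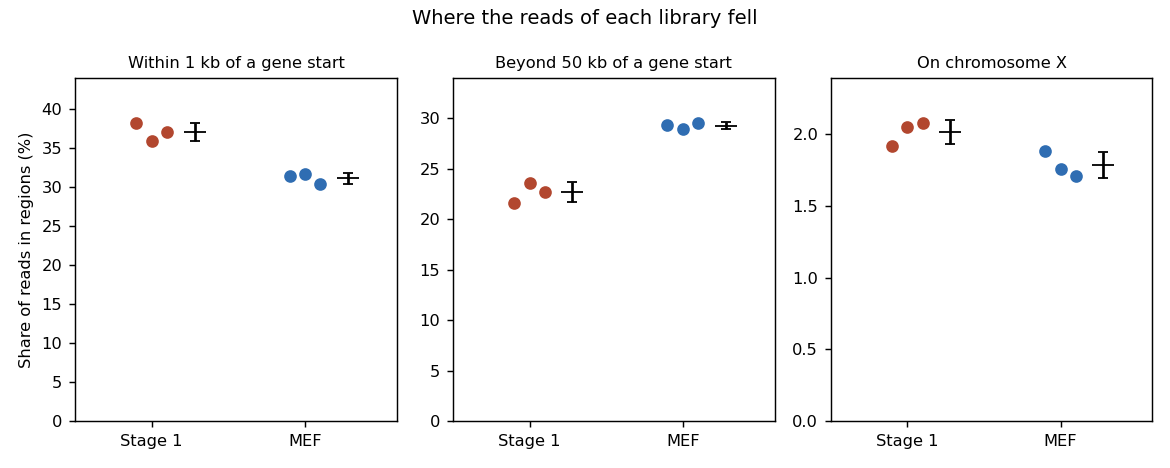
Points are libraries (Stage 1 in red, left; MEF in blue, right), bars the mean ± SD of 3, and the vertical axes the percentage of reads in regions that fell within 1 kb of a gene start, beyond 50 kb of one, or on chromosome X. The groups do not overlap in any panel.

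Changed regions lay in runs. Neighbouring called regions changed in the same direction in 79.3% of pairs up to 1 kb apart, 71.6% from 1 to 2 kb, 67.0% from 2 to 5 kb, 62.3% from 5 to about 12 kb and 60.3% from there to 25 kb, and beyond 100 kb in 57.4%. The shares of gains and losses alone would give 50%. Pairs within 1 kb were more often both more open (45.5%) than both less open (33.8%).

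**Figure D3:**
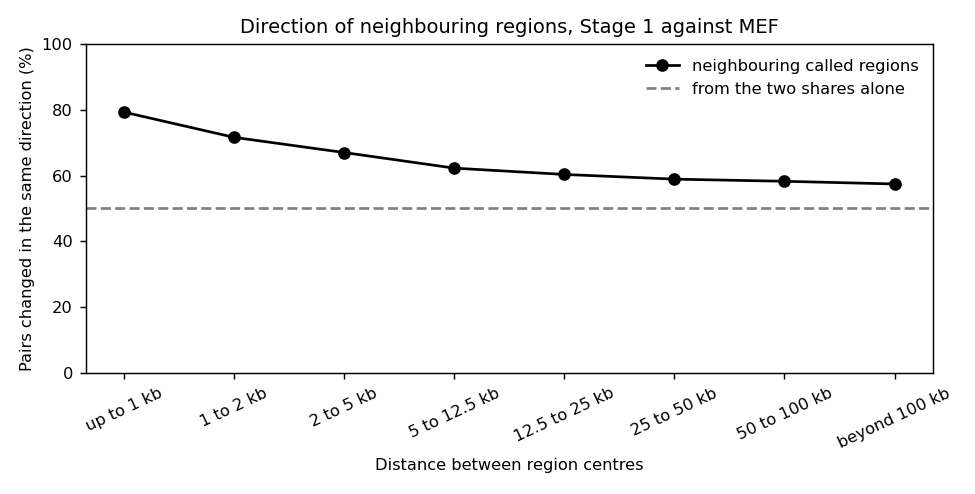
Points give the percentage of neighbouring called regions that changed in the same direction, Stage 1 against MEF, by the distance between their centres. The dashed line at 50% is the value from the overall shares of gains and losses; the points fall from 79.3% to 57.4%.

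Chains of at least 3 called regions of 1 direction, with centres at most about 12 kb apart and none called the other way between, numbered 1515 for gains and 1564 for losses. They held 5605 more open regions (19.7% of gains) and 5586 less open ones (19.5% of losses). Clusters of 10 or more regions numbered 9 among gains and 1 among losses. The 4 with the most regions in each direction follow, in mm10.

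The run of gains with the most regions was chr11:3125301-3196800, with 47 more open regions inside Sfi1, a centrosome gene. Its called regions summed to 4391, 4787 and 4158 CPM in Stage 1, against 1049.5, 1905 and 3194 CPM in MEF, and MEF replicate 1 was lowest and MEF replicate 3 highest among MEF, the reverse of their shares of reads in regions (22.1% and 11.3%). Sfi1 has near-identical copies in the mouse genome, and whether reads that match several places were kept is not given in the sources used here, so its value is uncertain. The run at chr4:147390001-147450400, over the zinc finger genes Zfp978 and Zfp982, held 16 regions and 367, 426 and 378 CPM in Stage 1, against 77.5, 90.7 and 134 CPM in MEF; it too belongs to a multigene family and is uncertain for the same reason. The 11 regions at chr7:3193001-3222350, which hold hairpins of the miR-290 cluster and overlap Nlrp12, summed to 348, 356 and 375 CPM in Stage 1, against 14.2, 21.0 and 30.5 CPM in MEF. A run of 11 regions at chr2:165791051-165833900 in Zmynd8, a chromatin reader, with Eya2 as nearest start, had 301, 238 and 219.7 CPM in Stage 1, against 38.1, 48.4 and 58.2 CPM in MEF. Apart from Sfi1, the lowest Stage 1 library in each was at least 2 times the highest MEF library. The sums hold only regions called more open, so a gap between the groups follows from the choice of regions.

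The run of losses with the most regions lay at chr15:77794401-77842900 in Myh9, a non-muscle myosin heavy chain of stress fibres, where 10 regions summed to 141, 92.8 and 89.3 CPM in Stage 1, against 372, 419.7 and 349 CPM in MEF. In chr15:66861551-66894500, over Ccn4, a secreted matricellular Wnt target, 9 regions had 27.7, 37.1 and 38.9 CPM in Stage 1, against 392, 401 and 341 CPM in MEF, the deepest loss of the 4. A gene-free run at chr4:89458451-89487450, with the nearest start at Cdkn2b 147743 bp away, had 27.7, 43.3 and 32.4 CPM in Stage 1, against 231, 190.5 and 192 CPM in MEF. The 9 regions at chr17:72947101-72976950, nearest to Lbh, had 19.4, 30.9 and 29.5 CPM in Stage 1, against 206, 216 and 191 CPM in MEF. In all 4 every Stage 1 library lay below every MEF library, but the sums hold only regions called less open. That separation follows from the choice of regions and is a description.

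Single regions with the largest changes show how complete some were. At gene starts, the region at chrX:79671151-79671900 over the start of Mageb16, an X-linked MAGE family gene, had 18, 41 and 46 reads in Stage 1, against 0, 0 and 3 reads in MEF (101-fold with a 95% counting interval of 33.6 to 498). The start of Olig3, a neural transcription factor, at chr10:19355951-19356500 had 26, 16 and 32 reads in Stage 1, against 1, 0 and 1 reads in MEF (107-fold with a 95% counting interval of 28.5 to 898). The start of Foxr2, an X-linked forkhead factor, at chrX:153118851-153119500 had 14, 13 and 16 reads in Stage 1, against 0, 1 and 0 reads in MEF (124-fold with a 95% counting interval of 21.1 to 5014). These ratios are of reads over scaled library size, with error from counting alone. Starts that closed were those of Lsp1, a leukocyte actin-binding protein, at chr7:142457851-142458600 with 1, 2 and 1 reads in Stage 1, against 150, 159 and 71 reads in MEF, and of 2 further genes. Cavin4, a muscle caveolar coat protein whose start lies within Tmeff1, had 0, 4 and 1 reads in Stage 1, against 203, 158 and 72 reads in MEF at chr4:48663051-48663750. Sun1, a nuclear envelope protein, had 1, 1 and 3 reads in Stage 1, against 159, 135 and 77 reads in MEF at chr5:139215051-139215800. A gene can have several listed starts, so a changed start need not be the gene's only start. The Mageb16 log2 fold change was 6.35, with 8.76 without MEF replicate 3 and 5.73 without MEF replicate 1. That of Foxr2 was 6.20, with 7.33 without MEF replicate 2. For Lsp1, Cavin4 and Sun1 the values were 32.9, 30.0 and 25.7 times lower in Stage 1, with counting intervals of 12.8 to 121, 12.8 to 92.9 and 10.9 to 79.7. The Cavin4 log2 fold change was -4.81, with -6.40 without Stage 1 replicate 2 and -4.18 without Stage 1 replicate 1.

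Beyond 50 kb of any start, a region inside Col24a1 at chr3:145443051-145443850 had 40, 40 and 60 reads in Stage 1, against 0, 0 and 1 reads in MEF (404-fold with a 95% counting interval of 71.3 to 16069), and its log2 fold change of 7.89 was 9.17 without MEF replicate 3. At chr4:112378751-112379300 and chr17:53907101-53907450, both between genes, Stage 1 libraries held 10, 17 and 20 and 16, 12 and 19 reads and the MEF libraries none. With MEF set to 3 reads over the group, each was 45.2-fold higher in Stage 1. With no MEF read, the lower end of the 95% counting interval was 35.3-fold in each. The reverse held at chr10:16578451-16579200, chr13:63717101-63717700 and chr5:4554801-4555450, where Stage 1 had no read and MEF had 185, 150 and 141 over 3 libraries. With Stage 1 set to 3 reads over the group, these were 21.4-fold, 17.3-fold and 16.3-fold lower in Stage 1. With no Stage 1 read, the lower ends of the 95% counting intervals were 17.2-fold, 13.9-fold and 13.1-fold. All 3 lie between genes. Each of the 12 regions was chosen for the size of its change, so the values are a description.

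The promoter windows at such starts, 250 bases before to 50 after the start, are shown for 2 that opened and 2 that closed, from RefSeq (GRCm38.p6). Mageb16 lies at chrX:79671386-79671685 (- strand), Nr5a2, a nuclear receptor of embryonic cells, at chr1:136953581-136953880 (- strand), Cavin4 at chr4:48663264-48663563 (+ strand) and Cdh10, a neural cadherin, at chr15:18820079-18820378 (+ strand). The Nr5a2 window is at a listed start inside the gene, whose span reaches 136960448. Capitals mark matches on either strand to any of 11 motifs, whose matches may share bases: AP-1 TGANTCA, octamer ATGCAAAT, Sox ACAANG, Esrrb TCAAGGTCA, Klf CACCC, TEAD GGAATG, Runx TGTGGT, ETS GGAAGT, NFY CCAAT, CRE TGACGTCA, and Nrf1, which is GCGCA and GCGC with any 1 base between. The Mageb16 window holds a match to the octamer, the motif that Pou5f1 binds, whereas the Nr5a2 window holds none. The Cdh10 window holds 2 Runx matches and the Cavin4 window none. The windows of Olig3 and Sun1, which are not shown, hold no octamer and no Runx match.
Mageb16: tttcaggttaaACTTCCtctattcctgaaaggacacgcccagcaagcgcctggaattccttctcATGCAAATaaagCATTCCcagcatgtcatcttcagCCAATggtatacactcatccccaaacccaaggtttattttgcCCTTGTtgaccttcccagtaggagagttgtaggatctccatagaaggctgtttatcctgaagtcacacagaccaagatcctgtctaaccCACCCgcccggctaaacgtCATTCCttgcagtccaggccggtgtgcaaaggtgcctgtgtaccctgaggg
Nr5a2: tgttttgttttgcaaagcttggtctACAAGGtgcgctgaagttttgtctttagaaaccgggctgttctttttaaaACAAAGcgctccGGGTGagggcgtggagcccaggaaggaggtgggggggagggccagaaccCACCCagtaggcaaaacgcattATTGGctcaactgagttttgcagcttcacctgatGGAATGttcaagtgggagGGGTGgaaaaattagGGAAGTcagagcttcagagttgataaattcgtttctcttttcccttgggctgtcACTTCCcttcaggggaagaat
Cavin4: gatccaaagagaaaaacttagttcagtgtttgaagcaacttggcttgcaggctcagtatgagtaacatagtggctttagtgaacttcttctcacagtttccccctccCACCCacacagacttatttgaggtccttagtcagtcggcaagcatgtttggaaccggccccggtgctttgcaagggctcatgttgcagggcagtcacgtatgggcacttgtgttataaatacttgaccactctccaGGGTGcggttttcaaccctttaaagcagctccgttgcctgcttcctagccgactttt
Cdh10: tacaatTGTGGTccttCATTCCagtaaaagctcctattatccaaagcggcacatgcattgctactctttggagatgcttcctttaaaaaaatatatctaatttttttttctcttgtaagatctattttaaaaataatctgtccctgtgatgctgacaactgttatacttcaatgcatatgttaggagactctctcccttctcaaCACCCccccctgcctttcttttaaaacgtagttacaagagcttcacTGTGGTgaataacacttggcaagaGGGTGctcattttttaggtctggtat

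The region over the Nr5a2 start shown had 25 ± 2.04 CPM in Stage 1 and 0.330 ± 0.129 CPM in MEF, and that over the Cdh10 start 2.2 ± 1.34 CPM in Stage 1 and 58.1 ± 2.34 CPM in MEF (SD, n = 3 each). Over all windows that overlap a tested region, opened promoters were poorer in CpG. The median observed over expected CpG was 0.610 in 3040 promoters with a more open region, 0.788 in 5057 with a less open one and 0.797 in 6381 not called. The octamer was in 2.43% of opened, 1.5% of closed, 1.11% of uncalled and 1.74% of all 32817 promoters. The AP-1 motif was in 4.47%, 7.08%, 3.67% and 7.81% in the same order, and the Klf motif in 69.2%, 63.0%, 63.1% and 57.5%. The Runx motif differed little, with 11.7% of opened and 12.4% of closed promoters, as did TEAD (12.9% and 12.8%). The Sox motif was in 34.8% of opened and 31.9% of closed promoters, ETS in 20.7% and 28.7%, NFY in 36.0% and 40.4%, Nrf1 in 6.48% and 9.51%, CRE in 2.53% and 3.05% and Esrrb in 0.132% and 0.198%. Composition differs between these sets, so the shares are a description without a test.

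Genes were given the summed reads of regions over their span or within 10 kb, a measure of accessibility near a gene and not of its expression. Of 17540 genes tested, 5686 rose and 5733 fell (65.1% called; 32.4% up and 32.7% down; 61.1% called without overlap between the groups), and with whole-library scaling 1343 rose and 12451 fell. The share of rises among the calls thus depends on the scaling, and the counts below hold for the TMM scaling. The lists leave out 150 usual pluripotency and mesenchymal genes, but still hold Pdgfrb, 1 of the 9 fibroblast markers above. Falls in the lists are therefore not all outside the fibroblast markers. Every gene given below with 3 values per group had no overlap between the groups, which the choice of named genes required. Each list's share called is to be read against the 65.1% of all genes, and its median log2 fold change against -0.012.

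Of the 18 lists, that of the contractile cytoskeleton had the highest share of losses. In the list of actin and contractility genes 0 of 22 tested genes rose and 19 fell (median log2 fold change -0.96; scaled to whole libraries, -1.90). Myl9, the regulatory myosin light chain, had 12.46, 4.42 and 6.01 CPM in Stage 1, against 36.8, 39.8 and 35.1 CPM in MEF (log2 fold change -2.27 ± 0.25 (SE), edgeR adjusted p = 6.22e-13), and every Stage 1 library lay below every MEF library. Acta2, smooth muscle actin, averaged 23.6 ± 2.65 CPM in Stage 1 and 112 ± 4.90 CPM in MEF, and Tagln, an actin-binding protein of smooth muscle, 20.0 ± 0.311 CPM in Stage 1 and 74.5 ± 0.595 CPM in MEF (SD, n = 3 each). Tagln2 (0.19), Cnn2 (-0.018) and Smtn (0.013) did not pass. Matrix proteases and crosslinkers had similar counts: 2 of 22 tested genes rose and 17 fell (median log2 fold change -0.92; scaled to whole libraries, -1.88). Lox, which crosslinks collagen, had 19.05, 15 and 14.4 CPM in Stage 1, against 114, 98.1 and 86.3 CPM in MEF (log2 fold change -2.64 ± 0.17 (SE), edgeR adjusted p = 1.61e-23). Mmp10, a stromelysin, and Mmp9, a gelatinase, rose. Mmp10 had 15.4, 13.3 and 14.4 CPM in Stage 1, against 5.85, 5.14 and 8.07 CPM in MEF, but of its 2 regions 1 opened and 1 closed, and the region inside the gene gave a log2 fold change of -0.84.

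In the lists of cytokines and of receptor tyrosine kinases falls outnumbered rises. Of cytokines, chemokines and receptors, 6 of 26 tested genes rose and 15 fell (median log2 fold change -0.60; scaled to whole libraries, -1.55). Ccl20, a chemokine for lymphocytes, had 2.93, 2.65 and 3.61 CPM in Stage 1, against 34.6, 22.4 and 27.0 CPM in MEF (log2 fold change -3.15 ± 0.32 (SE), edgeR adjusted p = 7.05e-14). Ccl2 (-2.98), Ccl7 (-2.72), Il6 (-2.34) and the interleukin 33 receptor Il1rl1 (-2.94) fell by similar log2 fold changes. Tnf had 19.8, 18.6 and 13.8 CPM in Stage 1, against 8.02, 7.61 and 13.3 CPM in MEF (edgeR adjusted p = 0.00116), from 1 region shared with a neighbouring gene, and gave -0.020 with whole-library scaling. Of receptor tyrosine kinases, 7 of 26 tested genes rose and 14 fell (median log2 fold change -0.48; scaled to whole libraries, -1.42). Kit, the receptor for stem cell factor, had 52.0, 46.9 and 52.3 CPM in Stage 1, against 15, 19.6 and 25.6 CPM in MEF (log2 fold change 1.40 ± 0.16 (SE), edgeR adjusted p = 4.39e-12; not past the threshold with whole-library scaling, log2 fold change 0.47). Musk, the muscle receptor for agrin signals, had 16.1, 14.2 and 12.6 CPM in Stage 1, against 83.9, 81.2 and 71.6 CPM in MEF (log2 fold change -2.48 ± 0.17 (SE), edgeR adjusted p = 6.10e-22). Pdgfrb (-1.16), Met (-1.12), Igf1r (-1.03) and Egfr (-0.94) fell too, whereas Pdgfra did not pass (log2 fold change -0.048, edgeR adjusted p = 0.791).

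Of nuclear receptors and retinoid genes, 5 of 30 tested genes rose and 16 fell (median log2 fold change -0.36; scaled to whole libraries, -1.31). Nr5a2 had 67.4, 86.7 and 76.4 CPM in Stage 1, against 19.4, 15.2 and 17.9 CPM in MEF (log2 fold change 2.12 ± 0.14 (SE), edgeR adjusted p = 1.08e-22), with all 4 of its regions more open. The oestrogen receptor gene Esr1 had 37.4, 41.6 and 28.3 CPM in Stage 1, against 121, 108 and 99.6 CPM in MEF (log2 fold change -1.66 ± 0.14 (SE), edgeR adjusted p = 6.84e-17). Pparg (-1.61), Rarb (-1.32) and Vdr (-1.06), receptors for fatty acids, retinoic acid and vitamin D, fell. In the Hedgehog pathway the ligands and the transducers moved apart. All 3 ligand genes rose, with Shh at 24.2, 32.7 and 28.3 CPM in Stage 1, against 5.85, 6.09 and 8.07 CPM in MEF (log2 fold change 2.12 ± 0.22 (SE), edgeR adjusted p = 5.15e-14). Ihh rose by 1.124 and Dhh by 0.51 on the log2 scale. The transcription factor Gli2 had 78.4, 80.5 and 78.8 CPM in Stage 1, against 270.5, 227 and 234 CPM in MEF (log2 fold change -1.63 ± 0.11 (SE), edgeR adjusted p = 3.34e-22). Its relative Gli3 (-0.61), the co-receptors Cdon (-0.93), Boc (-0.69) and Gas1 (-0.47) and the signal transducer Smo (-0.35) fell, while the targets Ptch1 (0.59) and Gli1 (0.54) rose. In all, 5 of 18 tested genes rose and 10 fell (median log2 fold change -0.36; scaled to whole libraries, -1.31). Of Notch genes, 8 of 24 tested genes rose and 8 fell (median log2 fold change 0.19; scaled to whole libraries, -0.76). The fringe gene Mfng had 19.8, 20.4 and 16.8 CPM in Stage 1, against 3.68, 4.18 and 4.91 CPM in MEF (log2 fold change 2.17 ± 0.27 (SE), edgeR adjusted p = 1.12e-10), and the ligands Dll4 (1.39) and Jag1 (1.38) rose with it. The coactivator Maml3 averaged 143 ± 5.52 CPM in Stage 1 and 297 ± 5.83 CPM in MEF, and the receptor Notch2 (-0.65) fell as well.

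Of guidance genes, 11 of 32 tested genes rose and 11 fell (median log2 fold change 0.11; scaled to whole libraries, -0.83). At their starts alone 13 of 30 rose and 4 fell, where 3576 of 13600 genes rose and 3176 fell (49.6% called). Ephb1, an ephrin receptor, averaged 84.3 ± 7.68 CPM in Stage 1 and 27.8 ± 3.91 CPM in MEF, with all 6 regions more open. The secreted ligand Slit3 averaged 168 ± 15.8 CPM in Stage 1 and 462 ± 11.2 CPM in MEF, with 18 of 28 regions less open. In the interferon and innate sensing list, 9 of 27 tested genes rose and 7 fell (median log2 fold change -0.040; scaled to whole libraries, -0.98). Together these are close to the share called among all genes. Oas1a, an RNA sensor, had 9.53, 13.3 and 9.62 CPM in Stage 1, against 0.669, 0.761 and 1.75 CPM in MEF (log2 fold change 3.44 ± 0.42 (SE), edgeR adjusted p = 4.28e-11). Its only tested region is shared with another gene. Oas2 rose by 3.17 and Ddx58 (RIG-I) by 2.28 on the log2 scale, and Mavs, the adaptor of RIG-I on mitochondria, by 0.89. Tlr4, the endotoxin receptor, had 5.86, 15 and 7.22 CPM in Stage 1, against 66.2, 53.8 and 58.6 CPM in MEF (log2 fold change -2.73 ± 0.22 (SE), edgeR adjusted p = 1.16e-18). Ifnb1 (-2.40) and Ifnar2 (-1.25) fell as well.

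Rises outnumbered falls by over 1.5 times in 4 lists, of which 3 follow here. At starts alone 9 of 28 rose and 6 fell in the Gata to Irx list, 4 of 14 rose and 3 fell in the retroelement list, and 8 of 23 rose and 5 fell in the amino acid list. Over all genes tested at starts, 3576 of 13600 rose and 3176 fell (49.6% called). Among Gata, Sox, Tbx, Zic and Irx factors, which pattern the embryo, 21 of 33 tested genes rose and 5 fell (median log2 fold change 0.50; scaled to whole libraries, -0.43). Irx4, a heart ventricle factor, had 17.6, 27.4 and 27.1 CPM in Stage 1, against 2.17, 2.47 and 4.91 CPM in MEF (log2 fold change 3.04 ± 0.28 (SE), edgeR adjusted p = 1.21e-15). All 5 Zic genes rose, by 0.91 (Zic1) to 1.95 (Zic2) on the log2 scale. Gata6, an endoderm factor, averaged 19.4 ± 5.80 CPM in Stage 1 and 30.9 ± 1.65 CPM in MEF (log2 fold change -0.66, edgeR adjusted p = 0.00149); without Stage 1 replicate 1 it was -0.43 and missed the threshold. Among genes of retroelement silencing and the early embryo, 10 of 18 tested genes rose and 2 fell (median log2 fold change 0.50; scaled to whole libraries, -0.44), and 10 of the 28 listed had too few reads to be tested. Prdm14, a regulator of germ cells and naive pluripotency, rose by 2.45, Zfp57, which guards imprints, by 1.49 and Trim28, the corepressor of zinc finger proteins, by 0.62 on the log2 scale. Tcstv1, expressed in 2-cell embryos, had 21 reads in Stage 1 and 3 in MEF over 3 libraries each (23.7-fold, 95% counting interval 7.08 to 124); its log2 fold change of 4.25 was 6.35 without MEF replicate 2 and 3.58 without MEF replicate 1, and it has near-identical copies. Mphosph8, of the HUSH silencing complex, averaged 38.7 ± 6.36 CPM in Stage 1 and 59.8 ± 6.51 CPM in MEF (log2 fold change -0.64). Of amino acid and one-carbon genes 12 of 26 tested genes rose and 5 fell (median log2 fold change 0.29; scaled to whole libraries, -0.68). Tdh, the threonine dehydrogenase on which mouse embryonic stem cells depend, had 98.2, 104 and 95.6 CPM in Stage 1, against 3.34, 6.85 and 10.2 CPM in MEF (log2 fold change 4.004 ± 0.17 (SE), edgeR adjusted p = 1.05e-32), and all 5 of its regions were more open. Gcat, the next enzyme of threonine breakdown, rose by 0.61, and the cationic amino acid carrier Slc7a3 by 3.06 on the log2 scale, while Psat1 of serine synthesis averaged 40.6 ± 7.35 CPM in Stage 1 and 76.3 ± 6.92 CPM in MEF (log2 fold change -0.94).

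Of neurotransmitter receptors and channels, 17 of 36 tested genes rose and 10 fell (median log2 fold change 0.28; scaled to whole libraries, -0.67). At their starts alone 21 of 29 rose and 1 fell, where 3576 of 13600 genes rose and 3176 fell (49.6% called). The glutamate receptor subunit Gria4 had 72.5, 97.3 and 66.2 CPM in Stage 1, against 14.2, 7.04 and 9.47 CPM in MEF (log2 fold change 2.87 ± 0.18 (SE), edgeR adjusted p = 4.40e-19). Its relative Gria1 moved the other way, with 27.1, 40.7 and 22.9 CPM in Stage 1, against 181, 188 and 190.2 CPM in MEF (log2 fold change -2.67 ± 0.14 (SE), edgeR adjusted p = 2.03e-26). Scn1a, a sodium channel, rose by 2.51 and Grin2a, an NMDA receptor subunit, fell by 2.51 on the log2 scale.

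In the remaining lists both directions were frequent. Of desmosome, gap junction and protocadherin genes 11 of 27 tested genes rose and 10 fell (median log2 fold change 0.15; scaled to whole libraries, -0.81). Pkp3, a desmosomal plakophilin whose 4 regions are shared with neighbours, averaged 66.8 ± 6.004 CPM in Stage 1 and 19 ± 0.253 CPM in MEF, and the gap junction gene Gja1 rose by 1.80 on the log2 scale. Fat4, a giant cadherin, averaged 33.1 ± 2.26 CPM in Stage 1 and 133 ± 5.86 CPM in MEF. Of glycan enzymes 7 of 30 tested genes rose and 13 fell (median log2 fold change -0.029; scaled to whole libraries, -0.97). B3galt5, which builds the stage-specific embryonic antigens, averaged 21.3 ± 7.61 CPM in Stage 1 and 6.64 ± 0.648 CPM in MEF, with neither of its 2 regions past the threshold singly. Has2 (-1.0005) fell while Has3 (1.54) rose, both hyaluronan synthases. Hs6st2, a heparan sulfate enzyme on chromosome X, averaged 27.8 ± 2.63 CPM in Stage 1 and 99.3 ± 6.68 CPM in MEF, though its start alone gave a log2 fold change of 0.77 (edgeR adjusted p = 0.0562). Of lipid genes 7 of 25 tested genes rose and 9 fell (median log2 fold change -0.022; scaled to whole libraries, -0.96). Apoe, a lipoprotein component, had 82.8, 95.6 and 102 CPM in Stage 1, against 11.7, 13.1 and 17.5 CPM in MEF (log2 fold change 2.79 ± 0.14 (SE), edgeR adjusted p = 1.84e-28); all 5 of its regions are shared with neighbouring genes. Adipoq, the fat cell hormone, averaged 4.26 ± 2.45 CPM in Stage 1 and 22 ± 2.57 CPM in MEF. In the blood list, 5 of 13 tested genes rose and 4 fell (median log2 fold change 0.17; scaled to whole libraries, -0.78), with Csf1r of macrophages at 9.02 ± 1.89 CPM in Stage 1 and 34.0 ± 1.65 CPM in MEF. Of endothelial genes 4 of 16 tested genes rose and 8 fell (median log2 fold change -0.25; scaled to whole libraries, -1.19). Sox17, also an endoderm factor, had 38.1, 43.4 and 52.9 CPM in Stage 1, against 3.01, 2.47 and 7.72 CPM in MEF (log2 fold change 3.55 ± 0.23 (SE), edgeR adjusted p = 7.32e-22). Emcn, an endothelial sialomucin, had 6.59, 4.42 and 4.21 CPM in Stage 1, against 35.6, 49.8 and 43.5 CPM in MEF (log2 fold change -3.07 ± 0.25 (SE), edgeR adjusted p = 4.38e-18).

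**Figure D4:**
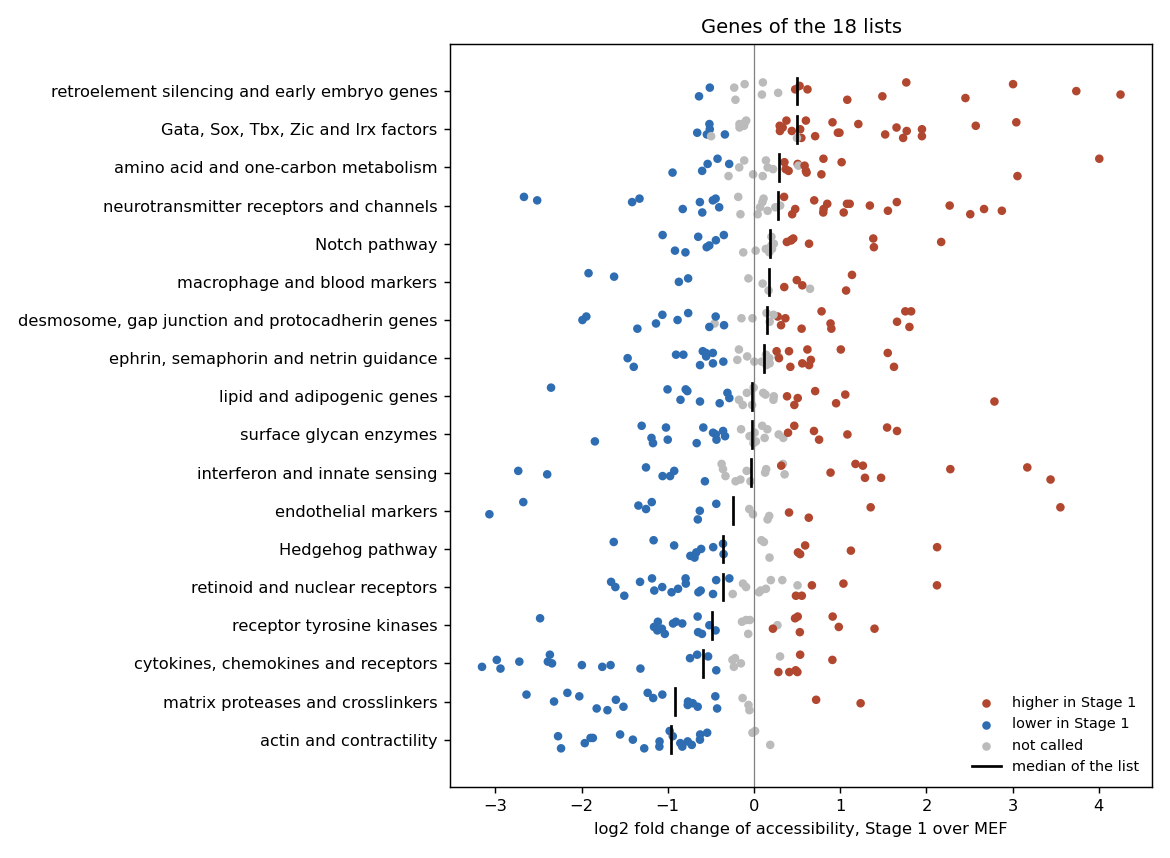
Each point is a tested gene of 1 of the 18 lists, placed by its log2 fold change of accessibility, Stage 1 over MEF (red higher, blue lower, grey not called), and each black bar the median of a list. Actin genes have no red point and a median of -0.96, and the Gata, Sox, Tbx, Zic and Irx list has a median of 0.50 (-0.43 when scaled to whole libraries).

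Outside the usual markers, the 8 largest rises among called genes without overlap between the groups and averaging 3 log2 CPM or more were as follows. Smgc, a salivary gland secreted protein, had 56.4, 59.3 and 57.7 CPM in Stage 1, against 0.669, 0.190 and 1.05 CPM in MEF (log2 fold change 6.53 ± 0.28 (SE), edgeR adjusted p = 8.10e-33). Cyp4a31, a fatty acid hydroxylase, had 58.6, 65.5 and 73.4 CPM in Stage 1, against 0.502, 0.951 and 2.46 CPM in MEF (log2 fold change 5.88 ± 0.25 (SE), edgeR adjusted p = 4.71e-33). Cdh19, a cadherin, averaged 30.7 ± 7.69 CPM in Stage 1 and 0.340 ± 0.334 CPM in MEF, and Cdx4, a caudal homeobox factor, 18.1 ± 2.77 CPM in Stage 1 and 0.292 ± 0.0884 CPM in MEF (SD, n = 3 each). Olig3 averaged 21.8 ± 2.44 CPM in Stage 1 and 0.409 ± 0.264 CPM in MEF. The olfactory receptor gene Olfr926 averaged 26.2 ± 9.27 CPM in Stage 1 and 0.307 ± 0.288 CPM in MEF, and Skint7, an immunoglobulin-like protein of skin and thymus, 40.4 ± 4.85 CPM in Stage 1 and 0.754 ± 0.611 CPM in MEF. Skint4 had 70 reads in Stage 1 and 3 in MEF (79.1-fold, 95% counting interval 26.0 to 393). No MEF library reached 3 CPM at any of these 8 genes. The log2 fold change of Cdh19, 6.21, was 7.35 without MEF replicate 1 and 5.61 without MEF replicate 2, and that of Olfr926, 6.25, was 7.21 without MEF replicate 2 and 5.55 without MEF replicate 1. Each rested on 1 or 2 regions, and Skint, Cyp4a and olfactory receptor genes have close copies between which reads may not be told apart.

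The 8 largest falls chosen in the same way were as follows. Prl3d3, a placental hormone of the prolactin family, had 1.47, 2.65 and 1.80 CPM in Stage 1, against 49.3, 41.7 and 40.0 CPM in MEF (log2 fold change -4.48 ± 0.30 (SE), edgeR adjusted p = 5.08e-22). Slc2a2, the glucose carrier of liver and islets, had 1.47, 0.885 and 2.41 CPM in Stage 1, against 32.9, 41.8 and 34.0 CPM in MEF (log2 fold change -4.39 ± 0.33 (SE), edgeR adjusted p = 1.11e-19). Ptafr, the platelet-activating factor receptor, averaged 0.991 ± 0.904 CPM in Stage 1 and 22.5 ± 2.85 CPM in MEF, and the sperm protein gene Adam3 0.896 ± 0.902 CPM in Stage 1 and 19.7 ± 0.985 CPM in MEF (SD, n = 3 each). 1810065E05Rik averaged 1.57 ± 1.03 CPM in Stage 1 and 26.4 ± 0.747 CPM in MEF. The surface antigen gene Ly6c1 averaged 1.34 ± 0.925 CPM in Stage 1 and 24.7 ± 0.552 CPM in MEF, and the serum amyloid gene Saa4 1.23 ± 0.852 CPM in Stage 1 and 20.2 ± 3.06 CPM in MEF. Tnfrsf13b, a B cell receptor for TNF ligands, had 3 reads in Stage 1 and 202 in MEF, or 19.9-fold lower (95% counting interval 6.70 to 97.1). Leaving out single libraries also moved 4 of these fold changes by over 1.5 times. On the log2 scale these were Adam3 (-4.27, and -5.41 without Stage 1 replicate 3), Ly6c1 (-4.05, and -4.83 without Stage 1 replicate 3), Saa4 (-4.03, and -4.72 without Stage 1 replicate 1) and Tnfrsf13b (-4.22, and -4.97 without Stage 1 replicate 3). These too rested on 1 or 2 regions each, so the values are of single sites near a gene. The 2 tested regions of Adam3 and the only tested region of Saa4 are shared with other genes. Since both sets were picked for their size of change, no count over them is given.

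A gene's sum often hid changes in both directions. Of 17319 genes with a tested region, 6487 (37.5%) had at least 1 region more open and at least 1 less open, and in 2603 of these the sum did not pass. At least 3 regions each way were found in 944 genes, 269 of them with a sum that did not pass. Genes with many regions reach such counts more readily (a median of 12 regions in the second set and 2.00 in genes with gains alone).

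Pde4d, a cyclic AMP phosphodiesterase, had 39 of 66 regions more open and 20 less open, and its sum averaged 922 ± 98.4 CPM in Stage 1 and 631 ± 18.3 CPM in MEF (log2 fold change 0.55, edgeR adjusted p = 1.34e-09). Auts2, a neural developmental gene, had 26 of 41 regions more open and 13 less open (sum 0.44), and Etl4 24 of 44 regions more open and 13 less open (sum 0.46). All 3 sums turned negative with whole-library scaling. Macrod2, an ADP-ribose hydrolase, had 22 of 39 regions more open and 16 less open, and its sum did not pass (log2 fold change 0.15, edgeR adjusted p = 0.102); without Stage 1 replicate 1 it passed at 0.26. Tns3, a focal adhesion protein gene, had 15 of 33 regions more open and 14 less open, and its sum did not pass either (0.15, edgeR adjusted p = 0.0765) but did without MEF replicate 1 (0.19), Stage 1 replicate 2 (0.21) or Stage 1 replicate 3 (0.20). The cytoskeletal linker gene Dst had 13 of 38 regions more open and 18 less open. Nav2, a gene of neurite growth, had 14 of 36 regions more open and 17 less open, and the GTPase regulator gene Arhgap26 17 of 37 regions more open and 16 less open. The 3 had sums of -0.33, -0.34 and -0.39 on the log2 scale.

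Klf4 and Myc, 2 of the usual reprogramming factors, which MEF also use, show the pattern on a small scale. Near Klf4 the start region averaged 52.9 ± 2.97 CPM in Stage 1 and 57.5 ± 7.31 CPM in MEF (log2 fold change -0.13, edgeR adjusted p = 0.459). A region 12675 bp from the start averaged 7.95 ± 1.153 CPM in Stage 1 and 1.46 ± 1.01 CPM in MEF (edgeR adjusted p = 5.12e-06). One 9375 bp away on the other side averaged 1.75 ± 0.907 CPM in Stage 1 and 15 ± 2.17 CPM in MEF (edgeR adjusted p = 7.15e-09). At Myc the start region averaged 44.0 ± 3.86 CPM in Stage 1 and 46.0 ± 6.95 CPM in MEF (edgeR adjusted p = 0.655). There a region 6266 bp before the gene averaged 10.1 ± 0.812 CPM in Stage 1 and 1.33 ± 1.07 CPM in MEF (edgeR adjusted p = 3.27e-09), and one 8739 bp beyond the gene's other end 1.85 ± 1.04 CPM in Stage 1 and 17.0 ± 2.05 CPM in MEF (SD, n = 3 each; edgeR adjusted p = 1.27e-10). So at both genes a flank that was open in MEF closed, the opposite flank opened, and the start did not pass. Whether reads of the introduced factors fall in these regions was not tested.

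Loci of microRNAs (miRNAs) were taken as another set outside the usual markers. miRNAs pair with target transcripts mainly through the seed, bases 2 to 8 of the mature strand, so the families are shown by seed. The mature sequences are from RefSeq (GRCm38.p6, which is mm10), in lower case with the seed in capitals. The first 9 come from loci that rose in Stage 1 and the last 6 from loci that fell. miR-294-3p, miR-295-3p, miR-302b-3p and miR-302d-3p have 1 seed, which miR-291b-3p shares up to its last base. miR-200b-3p and miR-429-3p share another, 1 base away from that of miR-200a-3p, and miR-29a-3p and miR-29b-3p share theirs.
mmu-miR-291b-3p: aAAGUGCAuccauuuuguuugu
mmu-miR-294-3p: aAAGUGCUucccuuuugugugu
mmu-miR-295-3p: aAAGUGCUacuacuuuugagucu
mmu-miR-302b-3p: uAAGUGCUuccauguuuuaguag
mmu-miR-302d-3p: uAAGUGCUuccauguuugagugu
mmu-miR-200b-3p: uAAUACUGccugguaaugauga
mmu-miR-429-3p: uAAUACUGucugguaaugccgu
mmu-miR-200a-3p: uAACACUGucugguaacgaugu
mmu-miR-205-5p: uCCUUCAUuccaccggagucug
mmu-miR-29a-3p: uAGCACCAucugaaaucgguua
mmu-miR-29b-3p: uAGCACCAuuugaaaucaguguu
mmu-miR-199a-3p: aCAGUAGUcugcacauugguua
mmu-miR-21a-5p: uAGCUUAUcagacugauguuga
mmu-miR-155-5p: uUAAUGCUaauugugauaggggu
mmu-miR-206-3p: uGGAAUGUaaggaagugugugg

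Accessibility was summed over the regions within 10 kb of each miRNA hairpin or chain of hairpins; it is not a level of the miRNA. Of 558 loci tested, 183 rose and 175 fell, or 64.2% called, with a median log2 fold change of -0.011 (-1.08 with whole-library scaling). Among 37 families chosen for roles in embryonic cells, fibroblasts or epithelium, 31 were tested, 12 rose and 11 fell, with a median of 0.015, or 74.2% called. Of all loci 60.6% were called without overlap between the groups.

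The miR-290 cluster (chr7:3218626-3220841), the main miRNA cluster of mouse embryonic stem cells, had 140.2, 162 and 167 CPM in Stage 1, against 5.12, 4.67 and 10.8 CPM in MEF (log2 fold change 4.65 ± 0.18 (SE), edgeR adjusted p = 2.72e-26). The lowest Stage 1 library stood over 10 times above the highest MEF library. The related miR-302 cluster (chromosome 3) had 73.1, 92.9 and 89.97 CPM in Stage 1, against 52.3, 59.6 and 37.9 CPM in MEF (log2 fold change 0.74 ± 0.13 (SE), edgeR adjusted p = 1.31e-06); the libraries did not overlap, but the difference was small and turned to -0.29 with whole-library scaling. The miR-200b cluster (miR-200a, miR-200b and miR-429, chromosome 4), whose products hold Zeb transcripts low in epithelial cells, had 28.2, 26.0 and 29.1 CPM in Stage 1, against 0.853, 2.24 and 3.13 CPM in MEF (log2 fold change 3.87 ± 0.28 (SE), edgeR adjusted p = 1.18e-19). The related miR-200c cluster (miR-200c and miR-141) on chromosome 6 rose by less, with 43.4, 55.7 and 50.1 CPM in Stage 1, against 40.6, 36.3 and 33.0 CPM in MEF (log2 fold change 0.42, edgeR adjusted p = 0.0102; -0.61 with whole-library scaling). miR-205, another epithelial miRNA that targets Zeb transcripts, had 124, 183 and 195 CPM in Stage 1, against 18.6, 17.2 and 20.5 CPM in MEF (log2 fold change 3.17 ± 0.14 (SE), edgeR adjusted p = 3.76e-30). At miR-205 and the miR-200b cluster all Stage 1 libraries lay far above all MEF libraries. The sensory miR-183 cluster averaged 89.4 ± 1.72 CPM in Stage 1 and 15.9 ± 4.93 CPM in MEF. miR-9-2, a neural miRNA, averaged 81.8 ± 10.4 CPM in Stage 1 and 15.6 ± 3.48 CPM in MEF (SD, n = 3 each). miR-9-3, miR-10a, miR-196a-2, the miR-17 cluster and the miR-23b cluster also passed upward, by 0.51 to 0.91 on the log2 scale, and all of these turned negative with whole-library scaling; miR-10a overlapped between the groups. miR-196a-2 missed the threshold without Stage 1 replicate 1 (log2 fold change 0.56), and the miR-23b cluster without MEF replicate 1 (0.46) or Stage 1 replicate 2 (0.45).

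Falls came at 11 of the families. miR-133b and miR-206, which are muscle miRNAs, had 6.86, 8.36 and 6.97 CPM in Stage 1, against 109, 66.0 and 61.5 CPM in MEF (log2 fold change -3.45 ± 0.25 (SE), edgeR adjusted p = 1.35e-16), and MEF replicate 1 was the highest library. At miR-155, known from immune cells, the values were 7.62, 10.2 and 6.97 CPM in Stage 1, against 47.6, 42.4 and 32.7 CPM in MEF (log2 fold change -2.36 ± 0.23 (SE), edgeR adjusted p = 5.44e-14). Both copies of miR-199a fell, the one beside miR-214 on chromosome 1 to 17.5, 18.6 and 29.1 CPM in Stage 1, against 96.7, 86.1 and 82.0 CPM in MEF. The miR-29a cluster (miR-29a and miR-29b-1), whose products target collagen transcripts, averaged 10.6 ± 3.90 CPM in Stage 1 and 40.8 ± 4.59 CPM in MEF, whereas the miR-29c cluster, with the same seed on another chromosome, averaged 23.4 ± 1.52 CPM in Stage 1 and 23.0 ± 4.20 CPM in MEF and did not pass (edgeR adjusted p = 0.954). miR-21a, abundant in fibroblasts, averaged 45.8 ± 2.76 CPM in Stage 1 and 136 ± 9.08 CPM in MEF, and miR-34a, a p53 target, 25.4 ± 5.89 CPM in Stage 1 and 58.0 ± 2.39 CPM in MEF (SD, n = 3 each). The miR-23a cluster (log2 fold change -0.75), miR-196a-1 (-0.71), miR-22 (-0.60) and miR-146a (-1.23) also fell. None of the 4 let-7 loci among these families passed: their log2 fold changes lay between -0.17 and 0.11. A let-7 copy outside the families, Mirlet7a-2, whose locus also holds Mir100, fell (log2 fold change -3.51, edgeR adjusted p = 2.07e-17); it was named after its value was seen. Copies of the same mature miRNA had opposite calls at miR-196a-1, which fell, and miR-196a-2, which rose. So did those of miR-24-3p and miR-3074-5p, in the miR-23a cluster, which fell, and the miR-23b cluster, which rose. The differences between copies were not tested.

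**Figure D5:**
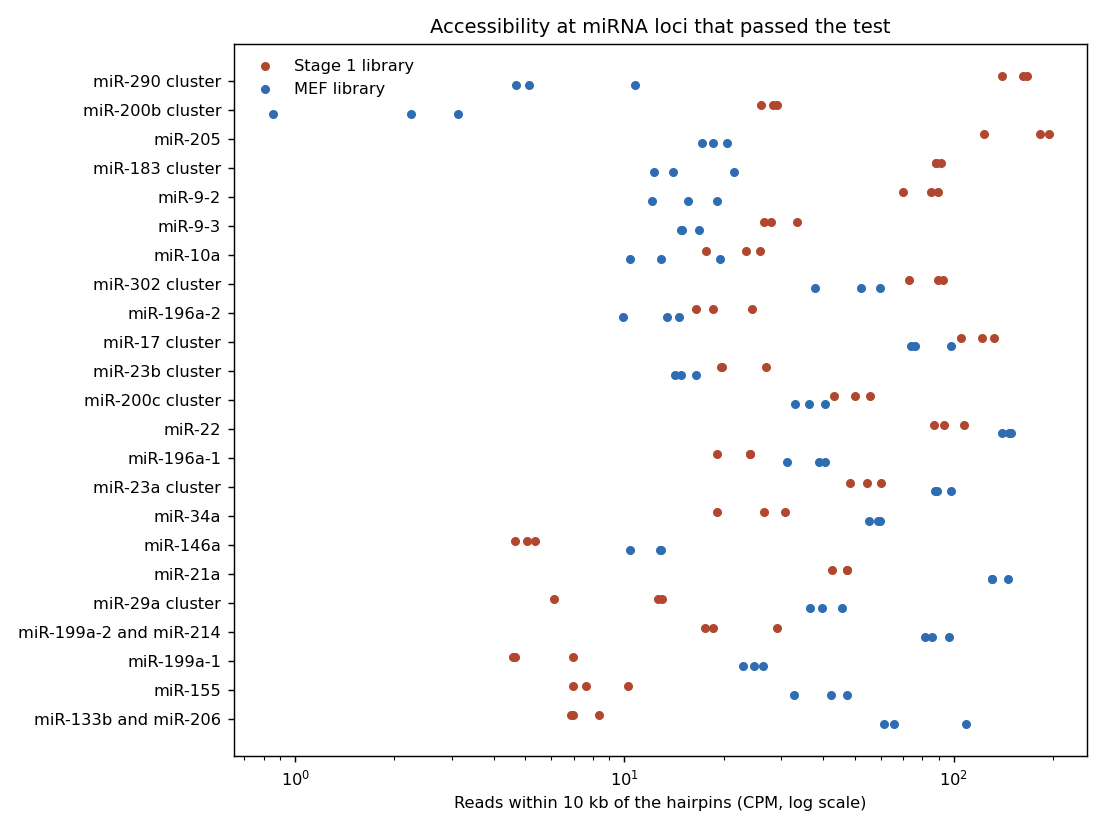
Each row is a miRNA locus that passed the test and each point a library, with the summed reads within 10 kb on a logarithmic CPM axis (Stage 1 in red, MEF in blue, 3 libraries each). The miR-290 and miR-200b clusters stand apart most at the top, and miR-133b with miR-206 and miR-155 at the bottom.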

How the data were processed

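The authors deposited a read count per region for each ATAC-seq library, with 5 summary rows (reads in no region, ambiguous reads), and an interval list per stage. Per the submitters' processing notes, the build was mm10 and the tools included HTSeq 0.5.4p3 and DESeq2 1.12.4, SAMtools 0.1.19, Bowtie2 2.2.6 and Picard 2.6.0, with no role or order. How peaks were called, duplicates handled or reads shifted is not given in the sources used here. Summary rows stayed out of tests; ambiguous reads were 0.0623% to 0.0743% of Stage 1 and 0.105% to 0.230% of MEF libraries. Replicate counts differed by a chi-square per degree of freedom of 1.02 to 1.23 between Stage 1 libraries and 1.20 to 2.14 between MEF libraries, MEF replicate 1 standing apart, and none were merged.

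Counts were tested with edgeR 4.0.16 (R 4.3.3), two-sided robust quasi-likelihood F tests, TMM scaling, filterByExpr (minimum count 10, total 15), 1 model of the 4 groups and 12 libraries, Benjamini-Hochberg adjusted p under 0.05; SE is the log2 fold change over the root of F. miRNA loci took the reads in regions as library size. CPM are counts over the TMM-scaled library size. Gene coordinates and sequences are RefSeq's (GRCm38.p6, which is mm10). Starts were listed for 17492 of 21887 protein-coding genes, and either gene end was used for the other 4395. A gene could have several listed starts, and each was used. Counts were not strand-specific, and a region near several genes counted for each. Ratios with counting intervals are exact and cover counting error only. DESeq2 1.42.0 and the other alternatives are given in the closing section. Scripts were tested on simulated data. Members and lists were chosen with earlier results of these data known; 150 usual pluripotency and mesenchymal genes were left out of the lists. Named genes were the largest rise and fall of each list and the 8 largest overall in each direction, past the threshold and without overlap between libraries, and the 8 genes with most regions in both directions; further list members and families were named after their values were seen, and some genes are not reported here. The miRNA comparison, the classes by list and under other scalings, and the background filter were added after seeing the data.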

Additional observations from a re-analysis of the deposited data

How the results depend on the processing

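Of 1311 values from 99 results refitted under alternatives, 1266 kept direction and side of the threshold, 22 turned, 14 lost the threshold and 9 passed it anew. Most of these results were genes and regions chosen for large changes past the threshold, or miRNA families already called. The share that held therefore follows in part from that choice and is not that of all genes or regions. Without the filter on low counts, 39669 regions were more and 39295 less open. With whole-library scaling, 59654 regions were less open, 1343 genes rose and 12451 fell, and 73 miRNA loci rose and 411 fell; it turned Auts2 (-0.51), Etl4 (-0.49), Klf4 (-0.87), Macrod2 (-0.79), Myc (-0.91), Pde4d (-0.40), Tnf (-0.020), Tns3 (-0.80), miR-10a (-0.25), the miR-17 cluster (-0.53), miR-196a-2 (-0.32), the miR-200c cluster (-0.61), the miR-23b cluster (-0.50), the miR-302 cluster (-0.29) and miR-9-3 (-0.10). By construction it leaves out the TMM factor and subtracts the unlike share of reads in regions. Thinned libraries gave 16054 less open regions and turned Klf4 (-0.091); fewer reads enter each test. A log2 fold change of at least 1 left 2378 genes up and 1718 down. Starts alone gave 3576 genes up and 3176 down, and turned Arhgap26 (0.79), Hs6st2 (0.77), Mmp10 (-0.92; -0.84 inside the gene) and Nav2 (0.051), since other regions are counted. Left-out libraries moved Myc between -1.75e-04 and 0.173. Clusters numbered 584 up and 605 down with gaps of 5 kb, and 2365 and 2486 with 25 kb. Background subtraction moved the difference at starts to 12.51 percentage points. The shares called within 1 kb and beyond 200 kb were 50.3% and 68.6% (regions on both lists); 53.6% and 96.2% (regions above the median level); 68.6% and 91.7% (whole-library scaling); 41.6% and 92.2% (thinned libraries); 50.1% and 92.0% (the 6 libraries alone); 49.7% and 92.5% (DESeq2); 47.1% and 91.2% (the replicate block). For the other moves the cause was not tested. Same-numbered libraries shared only a number (correlations of their deviations 0.0205, -0.0202 and 0.0211); in the 6 libraries, with the number as replicate block, 28039 regions were more and 31859 less open, and 5380 genes rose and 5112 fell, against 28586, 32494, 5618 and 5386 in the 6 libraries without it. Depth limits Stage 1 more than MEF.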
